A study of Mus musculus with 12 samples.

Results

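The leukotriene receptor and synthesis genes Cysltr1, Cysltr2, Ltb4r1, Alox5, Alox5ap, Ltc4s and Lta4h were followed in the mouse left ventricle, 7 genes of the 78334 in the count table. They were found by symbol, and all 7 matched 1 Ensembl identifier each. Cysltr1 was chosen by measured values: its levels separated UNX/DOCA vehicle from Sham vehicle hearts. The other 6 were taken for their place in the pathway, with results of these data known. Values of that comparison, and all fold changes of Cysltr1, are therefore given as a description with no test. RNA was measured in 3 groups of 4 mice with 1 library each. UNX/DOCA ITF2357 mice underwent UNX/DOCA, which induces diastolic dysfunction. Beginning 4 weeks after surgery, they ate chow with ITF2357 (givinostat, a histone deacetylase inhibitor) for 4 weeks. UNX/DOCA vehicle mice also underwent UNX/DOCA and had normal chow, and Sham vehicle mice had sham surgery and normal chow. UNX and DOCA came together in both UNX/DOCA groups, so their parts in a difference from Sham vehicle cannot be told apart. No Sham group received the drug, and the sources used here do not state strain, sex or age.

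Leukotrienes are lipid mediators made from arachidonic acid, mainly by cells of the myeloid lineage. Alox5 (5-lipoxygenase), helped by the membrane protein of Alox5ap (FLAP), makes the unstable leukotriene A4. The hydrolase of Lta4h turns it into leukotriene B4, a neutrophil attractant read by the receptor of Ltb4r1, while the synthase of Ltc4s joins it to glutathione and gives the cysteinyl leukotrienes, read by the receptors of Cysltr1 and Cysltr2. Cysteinyl leukotrienes are known for contracting smooth muscle and making vessels leaky.

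Libraries held about 23354000 to 34908800 counts, and levels are in CPM, each count divided by its TMM-scaled library total. Of the 7 genes, 5 had enough counts for the test over 16981 genes, and Cysltr2 and Ltb4r1 did not. Summed over 8 cardiomyocyte markers, levels of 54109 to 69520 CPM over the 12 libraries fit the tissue label. UNX/DOCA vehicle libraries 3 and 4 stood apart in neutrophil markers: the summed level of the 9 markers was 543 and 174 CPM in them, 25.5 and 4.01 CPM in UNX/DOCA vehicle libraries 1 and 2, 5.21 to 30.4 CPM in UNX/DOCA ITF2357 and 15.0 to 47.4 CPM in Sham vehicle. Results of the 7 genes other than Cysltr2, and of some other genes with a wide spread in UNX/DOCA vehicle, are given with and without libraries 3 and 4. Leaving them out keeps only libraries 1 and 2 of that group, and was chosen after seeing the data. For genes highest in libraries 3 and 4, a smaller difference then follows from the choice itself.

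Promoters were read for 5 of the 7 genes from RefSeq (GRCm38.p6), as the 250 bases before the gene start. Those of Alox5 (chr6:116461179-116461428, minus strand) and Ltb4r1 (chr14:55765712-55765961, plus strand) are shown because they were the 2 of the 5 that held a match to the Sp1 motif. Capitals mark the Sp1 motif GGGCGG on either strand.
Alox5: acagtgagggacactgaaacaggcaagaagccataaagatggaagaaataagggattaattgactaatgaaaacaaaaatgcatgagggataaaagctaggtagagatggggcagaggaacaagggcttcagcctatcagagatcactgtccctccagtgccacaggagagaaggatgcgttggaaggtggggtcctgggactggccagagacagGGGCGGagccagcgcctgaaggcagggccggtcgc
Ltb4r1: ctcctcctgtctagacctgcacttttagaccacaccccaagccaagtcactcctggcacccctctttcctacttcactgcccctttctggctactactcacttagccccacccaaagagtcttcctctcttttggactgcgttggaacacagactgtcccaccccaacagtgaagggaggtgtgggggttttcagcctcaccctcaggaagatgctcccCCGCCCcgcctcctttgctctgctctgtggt
The match begins 35 bases before the start of Alox5 and 31 bases before that of Ltb4r1. Promoters of the other 3 genes (Lta4h, Ltc4s and Cysltr2) had no match in this window, and 32.7% of the 32851 promoters in the table had one. The PU.1 motif GAGGAAGT, searched on both strands, was in 0 of the 5 windows and in 2.44% of all promoters. A match is a run of letters and was not tied to any reading of binding here.

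Among the receptors, Cysltr1 was about 3 times as abundant in both UNX/DOCA groups as in Sham vehicle. Cysltr1 (ENSMUSG00000052821, chrX:106574346-106603679, minus strand, in GRCm38), a receptor for cysteinyl leukotrienes, had 4.55, 9.26, 7.15 and 9.11 CPM in the UNX/DOCA ITF2357 libraries. It had 5.67, 7.11, 8.48 and 8.74 CPM in the UNX/DOCA vehicle libraries and 2.74, 3.18, 2.10 and 2.36 CPM in the Sham vehicle libraries. All 8 UNX/DOCA libraries lay above all 4 Sham vehicle libraries, while the 2 UNX/DOCA groups overlapped over most of their range. The means were 7.52 ± 2.20 CPM in UNX/DOCA ITF2357, 7.499 ± 1.41 in UNX/DOCA vehicle hearts and 2.60 ± 0.473 in Sham vehicle (SD, n = 4 each). The log2 fold change was 0.01 ± 0.22 (SE) for UNX/DOCA ITF2357 against UNX/DOCA vehicle. It was 1.53 ± 0.23 for UNX/DOCA ITF2357 against Sham vehicle and 1.52 ± 0.23 for UNX/DOCA vehicle against Sham vehicle. The last 2 fold changes share the Sham vehicle libraries, so their likeness is not separate evidence. Groups without overlap were found for 13.7% of all genes tested in UNX/DOCA ITF2357 against Sham vehicle, with 7.27% higher and 6.39% lower. In UNX/DOCA vehicle against Sham vehicle they were found for 9.39%, with 5.03% higher and 4.36% lower. Nothing is read from these shares for Cysltr1.

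**Figure D1:**
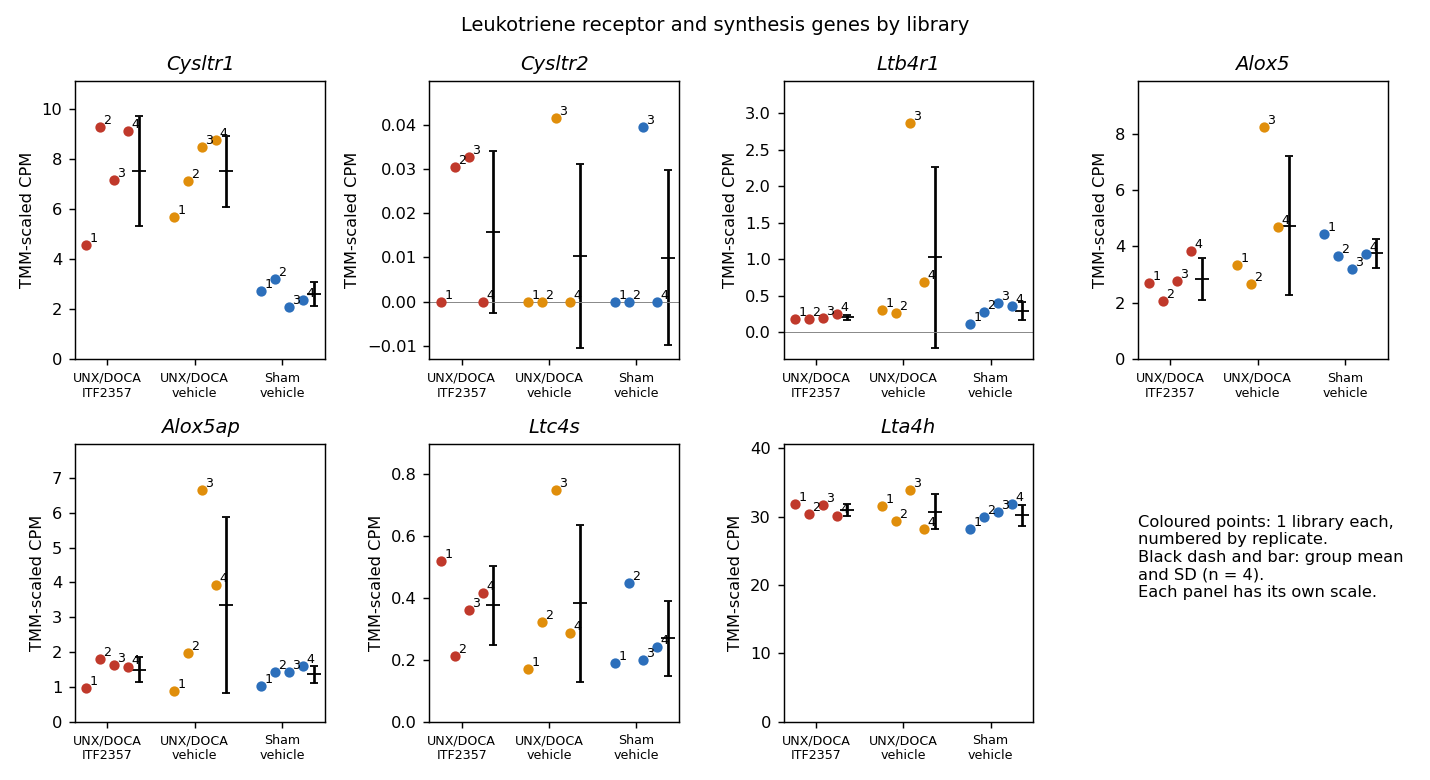
Levels of the 7 leukotriene genes in TMM-scaled CPM (y axis, own scale per panel), 1 numbered point per library in 3 groups, with the mean and SD of 4 libraries in black. For Cysltr1 the UNX/DOCA libraries sit between 4.55 and 9.26 CPM and the Sham vehicle libraries between 2.10 and 3.18 CPM, while Alox5, Alox5ap, Ltb4r1, Ltc4s and Lta4h peak in UNX/DOCA vehicle library 3.

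Cysltr1 was set beside the macrophage and mast cell markers of the same libraries, as a description. The 14 macrophage markers summed to 250 CPM in UNX/DOCA ITF2357 library 1 and to 300 CPM in UNX/DOCA vehicle library 1, against 294 to 353 CPM in Sham vehicle. In these 2 libraries Cysltr1 was at 4.55 and 5.67 CPM, above the Sham vehicle maximum of 3.18 CPM. Their mast cell marker sums were 24.5 and 16.7 CPM, against 18.9 to 20.1 CPM in Sham vehicle. Without UNX/DOCA vehicle libraries 3 and 4, the Cysltr1 log2 fold change for UNX/DOCA vehicle against Sham vehicle was 1.29 ± 0.26. For UNX/DOCA ITF2357 against UNX/DOCA vehicle it was then 0.23 ± 0.26. Mast cell markers summed to 24.5 to 36.6 CPM over 9 genes in UNX/DOCA ITF2357, 16.7 to 43.7 CPM in UNX/DOCA vehicle and 18.9 to 20.1 CPM in Sham vehicle. The macrophage sums were 250 to 459 CPM, 300 to 755 CPM and 294 to 353 CPM in the same 3 groups. No marker of either list was at 0 in every library of a group. The part of mast cells and macrophages in the Cysltr1 difference was not tested. In bulk tissue, more cells of a type and more RNA per cell cannot be told apart.

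Reads of Cysltr2, the other cysteinyl leukotriene receptor, were almost missing. It had 0, 1, 1 and 0 counts in the UNX/DOCA ITF2357 libraries, 0, 0, 1 and 0 in the UNX/DOCA vehicle libraries and 0, 0, 1 and 0 in the Sham vehicle libraries. A count of 0 allows a level of up to 0.0838 to 0.125 CPM per library (3 counts, counting error only), so no difference between groups could be seen at this depth. Oxgr1, a receptor proposed for leukotriene E4, was also near this limit with 3, 4 and 3 counts over the 4 libraries of UNX/DOCA ITF2357, UNX/DOCA vehicle and Sham vehicle. Of the 2 classical cysteinyl leukotriene receptors, Cysltr1 was thus the one with measurable RNA: per kb of exon it averaged 1.46 CPM in UNX/DOCA ITF2357, 1.46 in UNX/DOCA vehicle hearts and 0.505 in Sham vehicle, against at most 0.0145 CPM per kb for Cysltr2 in any library. Gpr17, an orphan receptor proposed to bind cysteinyl leukotrienes, averaged 0.878 ± 0.0371 CPM per kb in UNX/DOCA ITF2357, 0.834 ± 0.145 in UNX/DOCA vehicle hearts and 0.924 ± 0.0944 in Sham vehicle. The Gpr17 mean was thus above that of Cysltr1 in Sham vehicle and below it in both UNX/DOCA groups. In UNX/DOCA ITF2357 the 2 genes overlapped, at 0.846 to 0.918 CPM per kb for Gpr17 and 0.884 to 1.80 for Cysltr1. The Gpr17 log2 fold change was 0.08 ± 0.14 for UNX/DOCA ITF2357 against UNX/DOCA vehicle (edgeR adjusted p = 0.817) and -0.07 ± 0.14 against Sham vehicle (adjusted p = 0.810). An exon of Lims2 overlaps Gpr17 on the opposite strand.

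Ltb4r1, the high-affinity receptor for leukotriene B4, was low except in 1 library. It had 5, 6, 6 and 6 counts (0.185, 0.182, 0.197 and 0.249 CPM) in the UNX/DOCA ITF2357 libraries. It had 9, 8, 69 and 19 counts (0.304, 0.259, 2.87 and 0.683 CPM) in the UNX/DOCA vehicle libraries. In the Sham vehicle libraries it had 3, 10, 10 and 9 counts (0.114, 0.279, 0.396 and 0.360 CPM). UNX/DOCA vehicle libraries 3 and 4 were the highest of the 12, and the other 2 UNX/DOCA vehicle libraries lay within the Sham vehicle range. Every UNX/DOCA ITF2357 library was below every UNX/DOCA vehicle library, by a gap of 0.249 to 0.259 CPM that is less than 1 count wide at this depth. Of the genes tested, 9.31% had no overlap in that comparison, 4.95% higher and 4.36% lower. Ltb4r1 itself was below the count filter. In a fit with no filter its log2 fold change was -2.27 ± 0.77 for UNX/DOCA ITF2357 against UNX/DOCA vehicle (edgeR adjusted p = 0.346) and -0.51 ± 0.86 against Sham vehicle (adjusted p = 0.886). Without UNX/DOCA vehicle libraries 3 and 4 these values were -0.49 ± 0.61 (adjusted p = 0.817) and -0.50 ± 0.51 (adjusted p = 0.636). Ltb4r2, the low-affinity receptor beside it in the genome, had 1 to 8 counts in every library.

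Among the synthesis genes, Alox5ap and Alox5 averaged lower in UNX/DOCA ITF2357 than in UNX/DOCA vehicle, through the same 2 UNX/DOCA vehicle libraries, and neither passed the test. Alox5ap had 0.961, 1.79, 1.64 and 1.57 CPM in UNX/DOCA ITF2357 and 0.877, 1.97, 6.65 and 3.92 CPM in UNX/DOCA vehicle. In Sham vehicle it had 1.03, 1.42, 1.42 and 1.60 CPM. UNX/DOCA vehicle libraries 3 and 4 stood above all others, and libraries 1 and 2 of that group did not. For UNX/DOCA ITF2357 against UNX/DOCA vehicle the log2 fold change was -1.15 ± 0.47 (edgeR quasi-likelihood test, Benjamini-Hochberg adjusted p = 0.212). It was 0.06 ± 0.34 (adjusted p = 0.967) once UNX/DOCA vehicle libraries 3 and 4 were left out. Against Sham vehicle the UNX/DOCA ITF2357 value was 0.13 ± 0.48 (adjusted p = 0.917). UNX/DOCA vehicle against Sham vehicle had 1.28 ± 0.47, and 0.06 ± 0.34 without libraries 3 and 4. An exon of Alox5ap overlaps the antisense gene Gm19719 in the GRCm38 annotation, and the strand setting of the counting is not given, so reads of the 2 genes may not be separated.

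Alox5, the enzyme that commits arachidonic acid to leukotrienes, had 2.699, 2.07, 2.75 and 3.85 CPM in UNX/DOCA ITF2357. It had 3.34, 2.68, 8.23 and 4.68 CPM in UNX/DOCA vehicle hearts and 4.45, 3.66, 3.20 and 3.72 CPM in Sham vehicle. The 3 groups overlapped, and UNX/DOCA vehicle library 3 alone stood clear of the rest. Its log2 fold change was -0.73 ± 0.31 for UNX/DOCA ITF2357 against UNX/DOCA vehicle (edgeR adjusted p = 0.223) and -0.41 ± 0.31 for UNX/DOCA ITF2357 against Sham vehicle (adjusted p = 0.492). For UNX/DOCA vehicle against Sham vehicle it was 0.32 ± 0.30. Without UNX/DOCA vehicle libraries 3 and 4, the first of these values was -0.10 ± 0.24 (adjusted p = 0.912) and the last was -0.32 ± 0.24.

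The 2 enzymes that use leukotriene A4 showed no difference that passed. Lta4h, which makes leukotriene B4, had 31.8, 30.4, 31.7 and 30.03 CPM in UNX/DOCA ITF2357 and 31.5, 29.4, 33.9 and 28.2 CPM in UNX/DOCA vehicle. In Sham vehicle it had 28.2, 30.005, 30.6 and 31.9 CPM. Groups overlapped throughout, and the log2 fold changes were 0.01 ± 0.07 for UNX/DOCA ITF2357 against UNX/DOCA vehicle (edgeR adjusted p = 0.951) and 0.04 ± 0.07 against Sham vehicle (adjusted p = 0.817). Lta4h thus differed by little beside its error, also in UNX/DOCA vehicle against Sham vehicle (0.03 ± 0.07). Ltc4s, the first committed enzyme of the cysteinyl branch, had 14, 7, 11 and 10 counts in UNX/DOCA ITF2357, 5, 10, 18 and 8 in UNX/DOCA vehicle hearts and 5, 16, 5 and 6 in Sham vehicle. The mean levels were 0.376 ± 0.127 CPM, 0.382 ± 0.253 CPM and 0.269 ± 0.121 CPM in these groups (SD, n = 4 each). With so few counts the errors were wide: the log2 fold change was -0.01 ± 0.46 for UNX/DOCA ITF2357 against UNX/DOCA vehicle (edgeR adjusted p = 0.996) and 0.42 ± 0.47 against Sham vehicle (adjusted p = 0.664). For UNX/DOCA vehicle against Sham vehicle it was 0.42 ± 0.47. An antisense gene, Gm26542, overlaps an exon of Ltc4s, with the same limit on its reads.

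Of the 4 synthesis genes, edgeR thus called 0 in UNX/DOCA ITF2357 against UNX/DOCA vehicle, where 0.901% of the 16981 genes were called, 0.459% higher and 0.442% lower. It called 0 of them in UNX/DOCA ITF2357 against Sham vehicle, where 1.75% were, 0.913% higher and 0.842% lower. In UNX/DOCA vehicle against Sham vehicle 0% of all genes were called. Before adjustment, the edgeR model across all genes put Alox5 and Alox5ap below 0.05 in UNX/DOCA ITF2357 against UNX/DOCA vehicle, as it did 3141 genes of the 16981, and none of the 4 in UNX/DOCA ITF2357 against Sham vehicle. By DESeq2 and limma-voom the 4 genes had 0 calls in both drug comparisons as well, where DESeq2 gave no adjusted p for Ltc4s against Sham vehicle. A p that misses the threshold does not show that levels were equal.

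**Figure D2:**
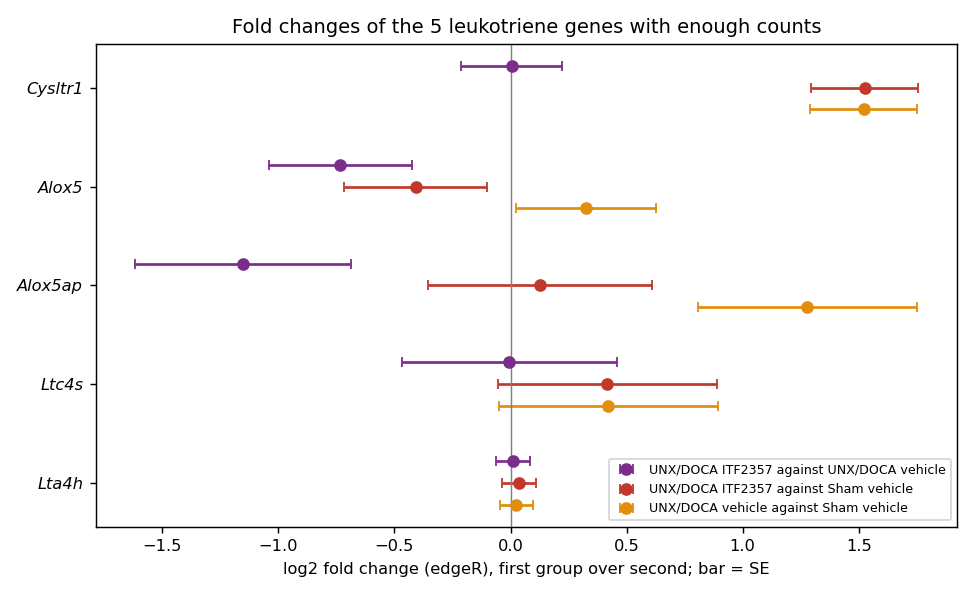
Log2 fold changes (x axis, bars are SE) of the 5 leukotriene genes with enough counts (y axis) in 3 comparisons, each as first group over second. Cysltr1 lies at 1.53 and 1.52 against Sham vehicle and at 0.01 for UNX/DOCA ITF2357 against UNX/DOCA vehicle, Alox5ap at -1.15 for UNX/DOCA ITF2357 against UNX/DOCA vehicle, and Lta4h near 0 in all 3.

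Scaled by exon length in the GRCm38 gene models, Lta4h was the most abundant of the 7 genes in every group, with 5.07 ± 0.147 CPM per kb in UNX/DOCA ITF2357, 5.04 ± 0.411 in UNX/DOCA vehicle hearts and 4.95 ± 0.248 in Sham vehicle. Below it the order differed by group. In UNX/DOCA ITF2357 the mean levels per kb ran from Cysltr1 (1.46 ± 0.428) over Alox5ap (1.05 ± 0.257), Alox5 (0.692 ± 0.181) and Ltc4s (0.371 ± 0.125) to Ltb4r1 (0.146 ± 0.0222). In UNX/DOCA vehicle they ran from Alox5ap (2.36 ± 1.78) over Cysltr1 (1.46 ± 0.275), Alox5 (1.15 ± 0.603) and Ltb4r1 (0.738 ± 0.890) to Ltc4s (0.377 ± 0.249). In Sham vehicle the order was Alox5ap (0.964 ± 0.171), Alox5 (0.916 ± 0.125), Cysltr1 (0.505 ± 0.0919), Ltc4s (0.265 ± 0.119) and Ltb4r1 (0.206 ± 0.0899), with Cysltr2 last in each group. Neighbours in these orders overlapped, except Lta4h and the gene after it in UNX/DOCA ITF2357 and Sham vehicle, Ltc4s and Ltb4r1 in UNX/DOCA ITF2357, Alox5 and Cysltr1 in Sham vehicle, and Cysltr2 and the gene above it in all 3 groups. In Sham vehicle, Cysltr1 lay between 0.408 and 0.619 CPM per kb and Alox5 between 0.780 and 1.08.

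**Figure D3:**
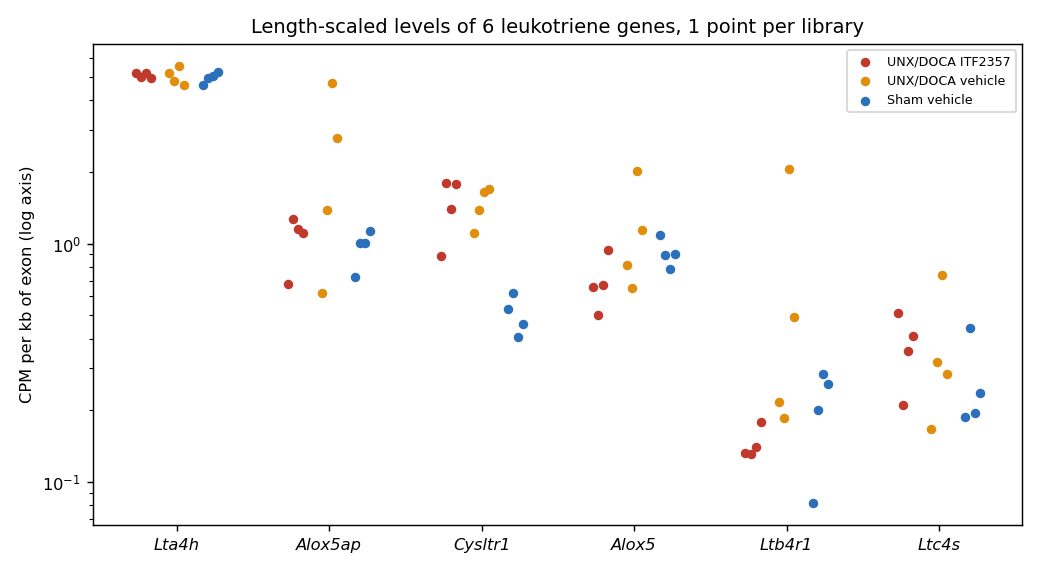
Levels of 6 leukotriene genes in CPM per kb of exon (y axis, log scale), 1 point per library, coloured by group; Cysltr2 is left out because most libraries had 0 counts. Lta4h sits near 5 CPM per kb in every group, and Cysltr1 is the gene whose Sham vehicle points lie wholly below both UNX/DOCA groups.

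The levels of Alox5, Alox5ap and Ltb4r1 were highest in the 2 libraries with the highest neutrophil and macrophage markers, and Cysltr1 followed the markers within the UNX/DOCA groups only in part. UNX/DOCA vehicle library 3, with 543 CPM of neutrophil markers and 755 CPM of macrophage markers, was the highest library for Alox5, Alox5ap, Ltb4r1, Ltc4s and Lta4h, and library 4 of that group (174 and 552 CPM) came second for Alox5, Alox5ap and Ltb4r1. The highest Cysltr1 level, 9.26 CPM, was in UNX/DOCA ITF2357 library 2, with 18.6 CPM of neutrophil markers and 376 CPM of macrophage markers. Within UNX/DOCA vehicle, however, Cysltr1 was also highest in libraries 3 and 4, at 8.48 and 8.74 CPM. In each UNX/DOCA group its lowest library was the one with the lowest macrophage sum, 4.55 CPM at a sum of 250 CPM in UNX/DOCA ITF2357 and 5.67 CPM at 300 CPM in UNX/DOCA vehicle. Markers of monocytes and recruited macrophages (10 genes) summed to 48.0 to 69.8 CPM in UNX/DOCA ITF2357, 51.3 to 152 CPM in UNX/DOCA vehicle and 45.5 to 63.2 CPM in Sham vehicle. Eosinophils, another source of cysteinyl leukotrienes, left at most 0.531 CPM over 7 markers in any library, with Ear1 at 0 in all 12. The part of neutrophils and macrophages in the Alox5, Alox5ap and Ltb4r1 levels was not tested. Of the 8 neutrophil and 14 macrophage markers with enough counts, edgeR called 0 in any of the 3 comparisons. Among all genes tested, 0.901% were called for UNX/DOCA ITF2357 against UNX/DOCA vehicle and 1.75% for UNX/DOCA ITF2357 against Sham vehicle. For UNX/DOCA vehicle against Sham vehicle it was 0%. In this order, the neutrophil markers had median log2 fold changes of -3.56, -1.09 and 2.48, with 0, 1 and 8 above 0. The macrophage markers had -0.43, 0.18 and 0.58, with 1, 10 and 13 above 0. Missing the threshold does not show equal marker levels. Among markers of B cells, which also express Alox5, Cd79b was called lower in UNX/DOCA ITF2357 than in UNX/DOCA vehicle (-1.78 ± 0.36, edgeR adjusted p = 0.0432) and than in Sham vehicle (-2.08 ± 0.36, adjusted p = 0.0215). Ms4a1 was called lower in UNX/DOCA ITF2357 than in Sham vehicle (-2.74 ± 0.55, edgeR adjusted p = 0.0343). Against UNX/DOCA vehicle Ms4a1 was not called (-2.13 ± 0.58, edgeR adjusted p = 0.0894). Ighm was called neither against UNX/DOCA vehicle (-0.36 ± 0.31, edgeR adjusted p = 0.566) nor against Sham vehicle (-0.57 ± 0.31, adjusted p = 0.325). Of all genes tested, 0.442% were called lower against UNX/DOCA vehicle and 0.842% against Sham vehicle. Igkc was at 0 in all 12 libraries. Alox5 averaged lowest in UNX/DOCA ITF2357, and the part of B cells in its level was not tested.

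**Figure D4:**
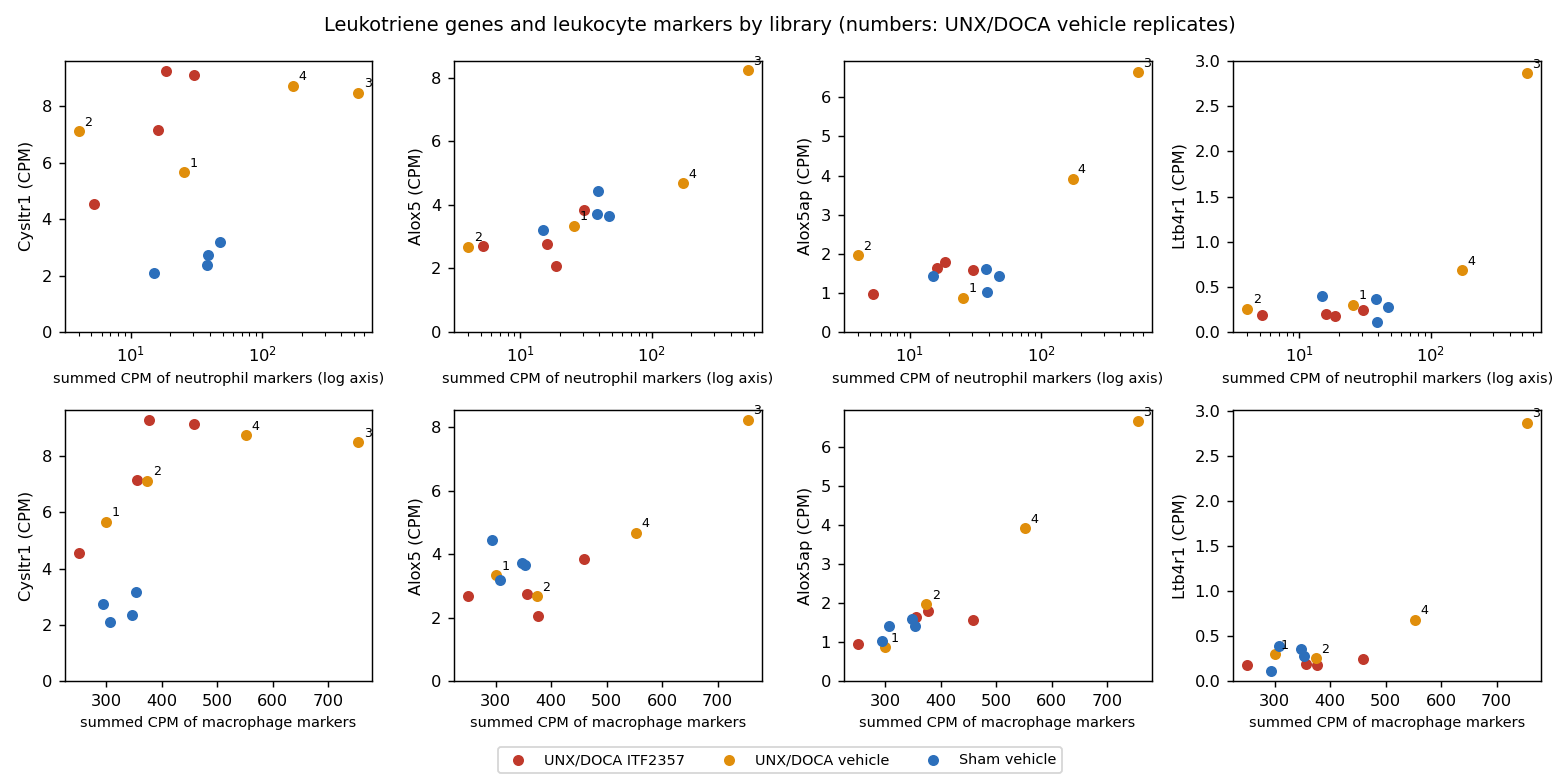
Levels of Cysltr1, Alox5, Alox5ap and Ltb4r1 (y axes, CPM) against the summed CPM of 9 neutrophil markers (upper row, log axis) and 14 macrophage markers (lower row), 1 point per library, with UNX/DOCA vehicle replicates numbered. UNX/DOCA vehicle libraries 3 and 4 lie at the upper right for Alox5, Alox5ap and Ltb4r1, and the UNX/DOCA libraries lie above the Sham vehicle libraries for Cysltr1.

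Genes with the pattern nearest to each member were ranked by Pearson's r of log2 CPM over the 12 libraries among 11892 genes (11893 for Ltc4s) with a mean of 1 CPM or more, as a description that includes the group differences. Nearest to Cysltr1 were Hebp1 (r = 0.93), Upp1 (0.91), Krt80 (0.91), M6pr (0.91), Gpm6b (0.90) and Ywhab (0.90). Upp1, a uridine phosphorylase, averaged 9.87 ± 3.29 CPM in UNX/DOCA ITF2357, 11.8 ± 2.16 in UNX/DOCA vehicle hearts and 5.54 ± 0.816 in Sham vehicle (SD, n = 4). Krt80, a keratin, averaged 6.80 ± 1.85, 6.50 ± 1.495 and 3.61 ± 0.285 CPM in the same groups. These r values include the difference from Sham vehicle by which Cysltr1 was chosen, and the cells behind the pattern were not tested. Nearest to Alox5 were Elmsan1 (0.94), Ppm1g (0.92) and the myeloid kinase gene Fgr (0.91). Nearest to Alox5ap were Ncf1 (0.95), a subunit of the phagocyte NADPH oxidase, Limk1 (0.95) and Tgfbi (0.94). Fgr averaged 0.417 ± 0.153 CPM in UNX/DOCA ITF2357, 2.75 ± 3.07 in UNX/DOCA vehicle hearts and 0.767 ± 0.168 in Sham vehicle. Nearest to Ltc4s were Hexa (0.90), Marveld1 (0.83) and Ctu1 (0.82), and nearest to Lta4h were Ficd (0.87), Xbp1 (0.86) and Glb1l (0.84). All members share the same 12 libraries.

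Other genes around the leukotrienes were taken from a list of 21, of which 20 matched a single identifier and 16 had enough counts. edgeR called 0 of the 16 in each of the 3 comparisons, with median log2 fold changes of -0.10 for UNX/DOCA ITF2357 against UNX/DOCA vehicle, -0.08 for UNX/DOCA ITF2357 against Sham vehicle and 0.03 for UNX/DOCA vehicle against Sham vehicle. The medians of all genes tested were 0.00, 0.01 and 0.01. Upstream, Pla2g4a, the phospholipase that frees arachidonic acid, averaged 3.25 ± 0.206 CPM in UNX/DOCA ITF2357, 4.16 ± 0.580 in UNX/DOCA vehicle hearts and 3.15 ± 0.836 in Sham vehicle. Its log2 fold change for UNX/DOCA ITF2357 against UNX/DOCA vehicle was -0.35 ± 0.19 (edgeR adjusted p = 0.340). Without UNX/DOCA vehicle libraries 3 and 4 the Pla2g4a value was -0.36 ± 0.24 (adjusted p = 0.599). Cotl1, whose product binds 5-lipoxygenase, averaged 8.33 ± 0.714, 14.1 ± 6.64 and 9.15 ± 2.27 CPM in these groups. Cotl1, Pla2g4a and Ptgr1 each had no overlap between UNX/DOCA ITF2357 and UNX/DOCA vehicle, with UNX/DOCA ITF2357 lower. Of all genes tested, 9.31% had no overlap there, 4.95% higher and 4.36% lower. The Cotl1 log2 fold change in that comparison was -0.76 ± 0.27 (edgeR adjusted p = 0.172). It was -0.21 ± 0.20 without UNX/DOCA vehicle libraries 3 and 4 (adjusted p = 0.745). Cyp4f18, which in neutrophils oxidizes leukotriene B4, averaged 0.218 ± 0.201, 1.34 ± 1.32 and 0.352 ± 0.121 CPM (-2.50 ± 0.81 for UNX/DOCA ITF2357 against UNX/DOCA vehicle, adjusted p = 0.140). Without libraries 3 and 4 the Cyp4f18 value was -0.22 ± 0.71 (adjusted p = 0.937).

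Downstream in the cysteinyl branch, Dpep1, a dipeptidase that turns leukotriene D4 into E4, averaged 74.2 ± 7.23 CPM in UNX/DOCA ITF2357, 57.6 ± 11.9 in UNX/DOCA vehicle hearts and 69.3 ± 10.1 in Sham vehicle. Its log2 fold change was 0.36 ± 0.15 for UNX/DOCA ITF2357 against UNX/DOCA vehicle (edgeR adjusted p = 0.208). Ptgr1, which inactivates leukotriene B4, had -0.34 ± 0.16 in that comparison (adjusted p = 0.282). Against Sham vehicle, the smallest p in UNX/DOCA ITF2357 belonged to the G protein gene Gna11 (-0.19 ± 0.09, adjusted p = 0.239), the exporter gene Abcc4 (-0.13 ± 0.08, 0.368), Gnaq (-0.15 ± 0.10, 0.423) and Prkca (0.13 ± 0.11, 0.539). Mgst3, a relative of Ltc4s, was abundant at 193 ± 31.2, 208 ± 17.8 and 196 ± 12.5 CPM in UNX/DOCA ITF2357, UNX/DOCA vehicle and Sham vehicle. Its relative Mgst2, which can also make leukotriene C4, had 1, 0 and 2 counts over the 4 libraries of these groups.

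The other branches of arachidonic acid were set beside these genes. Of 8 further lipoxygenase and lipid receptor genes 3 had enough counts and 0 were called in each comparison. Alox12 averaged 2.86 ± 1.49 CPM in UNX/DOCA ITF2357, 2.56 ± 0.606 in UNX/DOCA vehicle hearts and 3.32 ± 1.52 in Sham vehicle, and Alox15 had 2, 11 and 3 counts in all. Fpr2, a neutrophil receptor for lipid and peptide ligands, averaged 0.459 ± 0.227, 2.54 ± 3.23 and 0.486 ± 0.252 CPM (-2.46 ± 0.84 for UNX/DOCA ITF2357 against UNX/DOCA vehicle, edgeR adjusted p = 0.154, and -0.15 ± 0.59, adjusted p = 0.951, without UNX/DOCA vehicle libraries 3 and 4). Of 19 prostanoid genes 15 had enough counts and 0 were called, beside the same shares of all genes. Their median log2 fold changes were -0.14, -0.03 and -0.05 in UNX/DOCA ITF2357 against UNX/DOCA vehicle, UNX/DOCA ITF2357 against Sham vehicle and UNX/DOCA vehicle against Sham vehicle. The smallest p was that of Hpgd, the enzyme that inactivates prostaglandins, at 5.37 ± 0.699 CPM in UNX/DOCA ITF2357, 3.28 ± 0.420 in UNX/DOCA vehicle hearts and 4.83 ± 1.14 in Sham vehicle (0.71 ± 0.18 for UNX/DOCA ITF2357 against UNX/DOCA vehicle, edgeR adjusted p = 0.0723). Ptges2, a prostaglandin E synthase, had the smallest p against Sham vehicle, at 41.7 ± 3.35 CPM in UNX/DOCA ITF2357, 46.7 ± 2.14 in UNX/DOCA vehicle hearts and 48.6 ± 1.96 in Sham vehicle (-0.22 ± 0.07, adjusted p = 0.112).

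**Figure D5:**
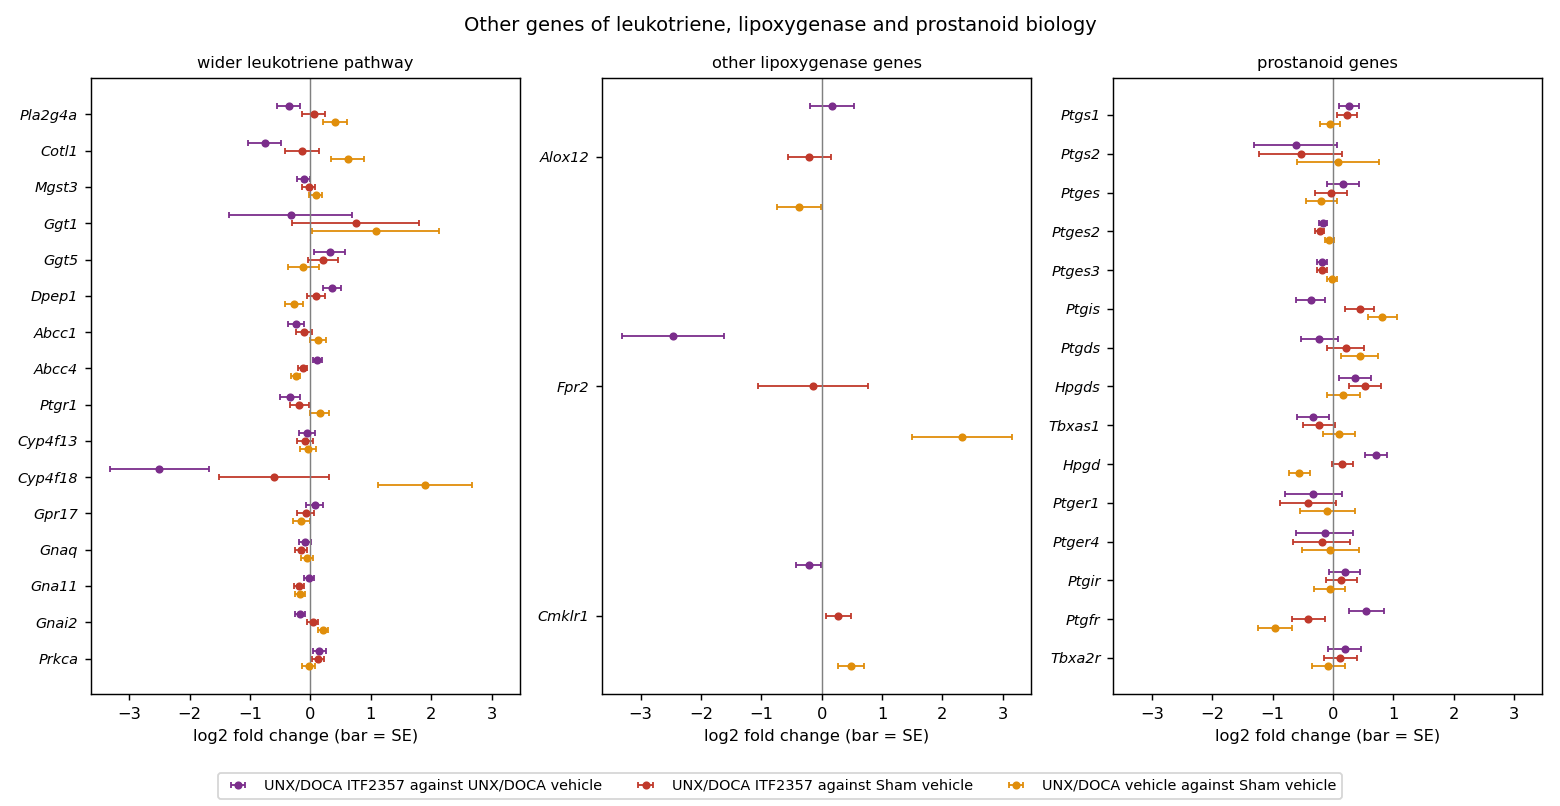
Log2 fold changes (x axis, bars are SE) of 16 other leukotriene pathway genes, 3 lipoxygenase and lipid receptor genes and 15 prostanoid genes (y axes) in the 3 comparisons, first group over second. Cyp4f18 (-2.50) and Fpr2 (-2.46) lie farthest from 0 for UNX/DOCA ITF2357 against UNX/DOCA vehicle. edgeR called 0 of the genes shown, and 0.901% of all genes in that comparison. It called 1.75% of all genes in UNX/DOCA ITF2357 against Sham vehicle and 0% in UNX/DOCA vehicle against Sham vehicle.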

How the data were processed

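Poly(A)-selected, directional RNA libraries were made from about 10 mg of left ventricle per mouse, per the labels' protocols. The authors deposited unnormalized counts for each Ensembl gene. FastQC 0.11.9, STAR 2.7.10b and the mm39 build are named in the submitters' processing notes. How reads were counted, with which strand setting and annotation, is not given in the sources used here. Groups follow the titles, since a treatment field numbers the 4 drug libraries differently. Replicates are separate animals per the labels' protocols.

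Symbols matched 51486 of 78334 identifiers through GENCODE M21 (GRCm38), which also gave exon lengths and overlaps. The test was that of edgeR 4.0.16, run in R 4.3.3, with filterByExpr (minimum count 10), TMM scaling and a robust quasi-likelihood fit over 12 libraries with a term per group (9 residual degrees of freedom). Benjamini-Hochberg adjustment ran over 16981 genes with a threshold of 0.05. Adjusted p-values come from it where no other tool is named. Each SE was taken as |log2 fold change| over the root of its F value. Totals were about 23354000 to 34908800 counts a library. Pairs of replicates within a group had a chi-square per degree of freedom of 10.9 to 57.3, so none was a repeat of another library of its group. Libraries of different groups were not compared in this way. The alternatives were other scalings and filters, DESeq2 1.42.0, limma-voom (limma 3.58.1), 2-group fits, a replicate block and libraries left out.

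The genes and lists were chosen with earlier results of these data known. Named beside the 7 genes were up to 4 genes per pathway list with the smallest p in each ITF2357 comparison and at least 1 CPM in a group. Also named were the 6 genes nearest to Cysltr1 and the 3 nearest to each other tested member by Pearson's r. Pla2g4a, Mgst2, Mgst3, Ltb4r2, Oxgr1, Alox15, Gpr17, Ptger2, Ggt1 and Ggt5 fall outside this rule and were chosen after their values were seen, as were the B cell markers. One marker of the B cell list is not reported here.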

Additional observations from a re-analysis of the deposited data

Results flagged for a closer look

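Of 57 groups of 4 libraries checked for a value far from the other 3, 2 held such a value, and chance gives about 1 in 20. The summed level of mast cell markers was 36.6 CPM in UNX/DOCA ITF2357 library 4, against 24.5 to 24.99 CPM in the other libraries of that group. That of platelet markers was 18.1 CPM in Sham vehicle library 1, against 9.05 to 10.3 CPM in the others.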

How the results depend on the processing

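For Alox5, Alox5ap, Ltc4s and Lta4h, 0 values passed the threshold in either ITF2357 comparison under the alternatives that gave an adjusted p, the smallest being 0.0542 for Alox5ap against UNX/DOCA vehicle when 1 library was left out. The Cysltr1 log2 fold change stayed between 1.40 and 1.70 for UNX/DOCA ITF2357 against Sham vehicle, and between 1.29 and 1.63 for UNX/DOCA vehicle against Sham vehicle. In UNX/DOCA ITF2357 against UNX/DOCA vehicle, signs turned for values near 0: Lta4h was -0.0036 with library totals and -0.028 to 0.055 with 1 library left out, and Ltc4s was 0.25 with limma-voom, 0.049 with a replicate block, 0.58 without UNX/DOCA vehicle libraries 3 and 4 and -0.25 to 0.50 with 1 library left out. Alox5ap was 0.061 without libraries 3 and 4, and -1.47 to -0.59 with 1 library left out. Lta4h against Sham vehicle was -0.0019 to 0.063 with 1 library left out. With no filter and without libraries 3 and 4, Ggt5 (0.72 ± 0.17, edgeR adjusted p = 0.0052), Dpep1 (0.41 ± 0.11, 0.0289) and Hpgd (0.79 ± 0.22, 0.0281) passed for UNX/DOCA ITF2357 against UNX/DOCA vehicle, and Ptger2 (1.98 ± 0.63, 0.0459) for UNX/DOCA ITF2357 against Sham vehicle. With the filter, 0 genes of the 3 pathway lists passed without these libraries. The causes were not tested.

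The counts of genes called over the whole table depended on the setting. For UNX/DOCA ITF2357 against UNX/DOCA vehicle (153 genes) they were 352 with no filter, 928 with DESeq2, 239 with limma-voom, 5 with only the 2 groups, 68 with the replicate block, 12 without UNX/DOCA vehicle libraries 3 and 4 (chosen after seeing the data) and 14 (without UNX/DOCA ITF2357 library 1) to 243 (without UNX/DOCA vehicle library 1) with 1 library left out. For UNX/DOCA ITF2357 against Sham vehicle (298 genes, 155 higher and 143 lower, and 172 higher and 98 lower with library totals) they were 1180 with DESeq2, 1528 with limma-voom, 475 with 2 groups, 192 with the block, 481 without libraries 3 and 4, and 17 (without Sham vehicle library 1) to 616 (without UNX/DOCA vehicle library 3). For UNX/DOCA vehicle against Sham vehicle edgeR called 0 genes (2699 at an unadjusted p under 0.05), 210 with no filter, 593 with DESeq2, 559 with limma-voom, 31 with the block, 1 without libraries 3 and 4, and 0 to 380 (without UNX/DOCA vehicle library 1). Replicate numbers are not known to pair animals: deviations from the group means correlated between -0.19 and 0.25 (median 0.00) over same-numbered libraries. Ltb4r1, Ltc4s and Cysltr2, with 0 to 69 counts per library, are limited by depth.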

Other observations

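Ggt1, a transferase that turns leukotriene C4 into D4, was nearly absent in 3 libraries of 2 groups and present in the other 9. This gene was chosen after its values were seen. It had 99, 2, 144 and 99 counts in the UNX/DOCA ITF2357 libraries, 60, 73, 202 and 83 in the UNX/DOCA vehicle libraries and 4, 68, 3 and 131 in the Sham vehicle libraries. UNX/DOCA ITF2357 library 2 and Sham vehicle libraries 1 and 3 were thus at 0.0607, 0.152 and 0.119 CPM, and the other 9 at 1.90 to 8.39 CPM. The annotation lists no gene that overlaps it. Its neighbour Ggt5, which acts on the same leukotriene, had 135 to 362 counts in every library.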
